A study of Mus musculus with 4 samples.

Results

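The glycolysis enzymes described here are 10 mouse genes, Hk1, Hk2, Gpi1, Pfkl, Pfkp, Aldoa, Pgk1, Pgam1, Pkm and Ldha, which were chosen by name. Of these, 9 had a probe set (a group of array probes that measures a transcript) annotated with their symbol alone, out of 19938 genes measured that way. Gpi1, which encodes glucose-6-phosphate isomerase, had none and was not analysed here. Each gene was represented by its brightest probe set, the one with the highest mean over the 4 arrays.

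The study hybridised biotin-labelled small intestine RNA to Affymetrix arrays, 2 for the genotype CFLARs Tg and 2 for wild-type mice, all of strain C57BL/6. CFLARs names a short protein form made by Cflar (cFLIP), which binds caspase-8 and restrains apoptosis, the caspase-driven form of cell death. Its effect on necroptosis was not tested here. The titles of the CFLARs Tg arrays end in XCFX and XCFY and those of the wild-type arrays in XX and XY, and the arrays are named by these endings below. The series title speaks of preterm mice and of necroptosis of the intestinal epithelium, and the design asks how the intestinal transcriptome of the transgenic mice differs from that of wild-type mice. The age of the mice, the promoter of the transgene, its copy number, the stretch of intestine and the number of animals behind an array are not given in the labels, so p-values measure the spread between these arrays, which may be technical in part.

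Glycolysis splits glucose into pyruvate and yields ATP without oxygen. Hexokinases trap glucose in the cell as glucose-6-phosphate, phosphofructokinases commit the sugar to the pathway, and pyruvate kinase and lactate dehydrogenase close it. Most steps are served by several isozymes from separate genes: liver, kidney and small intestine are known for Pklr, whereas Hk2, Pfkp, Pkm and Aldoa are typical of proliferating, activated or low-oxygen cells. In the small intestine the epithelium also takes up dietary sugar and passes it to the blood, and it carries enzymes of gluconeogenesis.

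The deposited values are on a log2 scale and had array medians of 8.31 to 8.33. The wild-type arrays differed less from each other (SD of the log2 differences of autosomal genes 0.125) than the CFLARs Tg arrays did (0.231). Each group held an XX-type and an XY-type array, so these SDs include any difference between the types. Where a sex-specific gene should be silent (Y-linked genes with XX titles, Xist with XY titles), it read 5.13 to 6.78, which gives a scale for background. Each of the 9 enzymes lay above it on every array, the lowest value being 8.66. The enterocyte genes Vil1 and Fabp2, picked after their values were seen, read at least 11.99 on every array. Cflar, whose probe set need not detect the transgene, averaged 9.40 in CFLARs Tg and 9.31 in wild-type.

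In CFLARs Tg intestine, Hk2, Pfkp, Pgk1 and Pkm rose, and 0 of the 9 enzymes fell (limma, Benjamini-Hochberg adjusted p under 0.05 over 13956 genes). Over all genes fitted, 8.44% rose and 10.9% fell. Hk2 stood apart with a 3.10-fold difference, while the other 3 that rose differed by 1.32-fold to 1.45-fold. Both CFLARs Tg arrays lay above both wild-type arrays in 8 of the 9 enzymes, against 32% of all genes fitted. The median difference of the 9 was 0.34 on the log2 scale, against -0.01 over all genes. Before adjustment, 7 of the 9 enzymes and 5457 of the 13956 genes had a p under 0.05. In whole tissue, a change in the share of a cell type and a change in RNA per cell cannot be told apart.

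**Figure D1:**
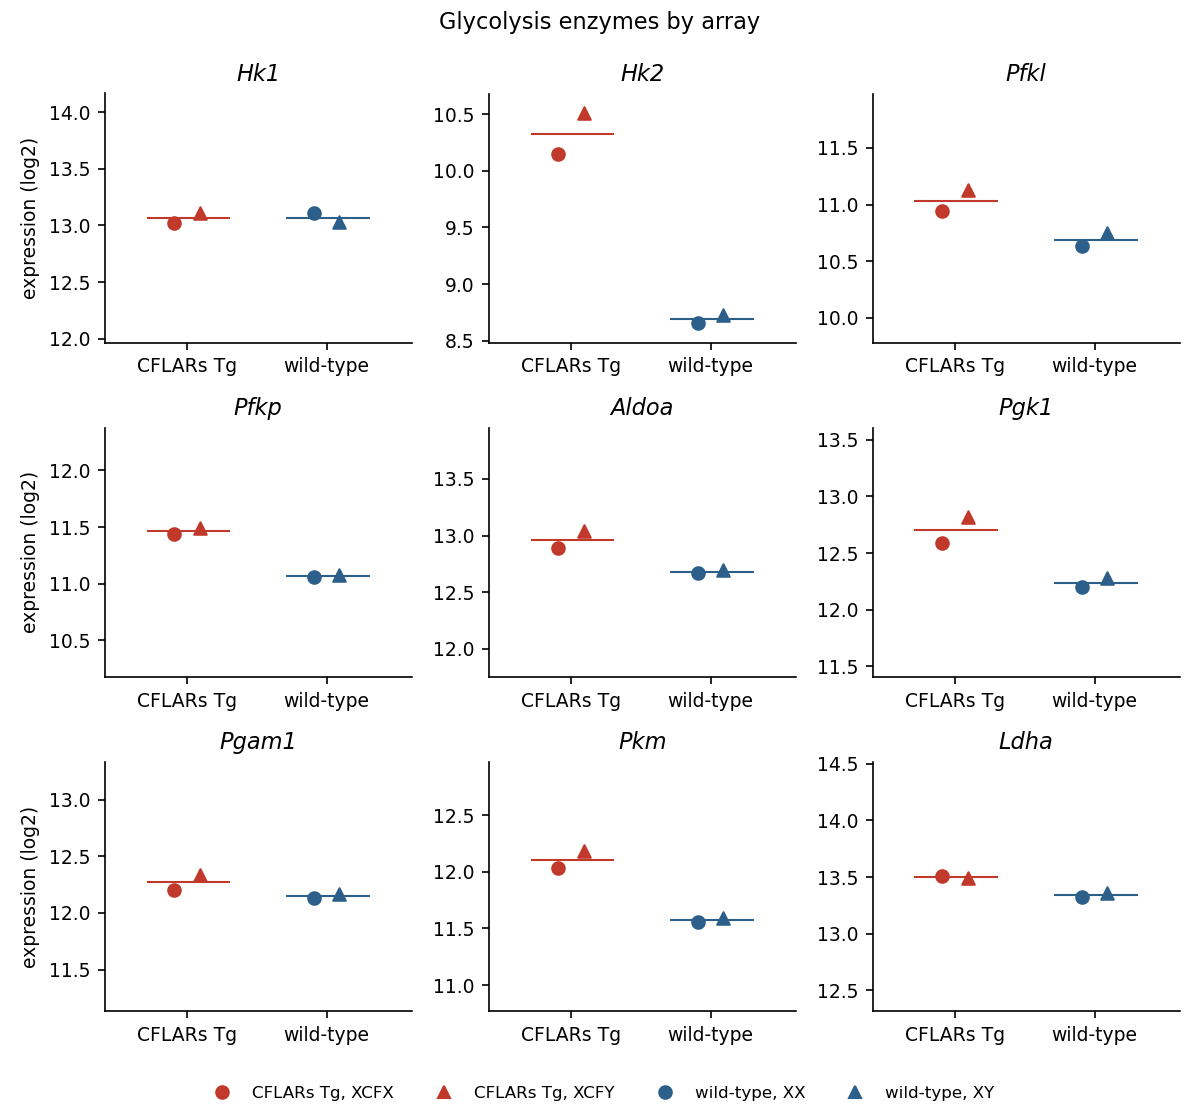
Log2 expression of the 9 glycolysis enzymes on each array, CFLARs Tg in red and wild-type in blue, with circles for the XX-type and triangles for the XY-type arrays and a line at each group mean (n = 2). Every panel spans the same number of log2 units, so distances can be compared between panels: the groups are farthest apart in Hk2 (10.15 and 10.51 against 8.66 and 8.73), and they overlap only in Hk1.

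Hexokinases catalyse the entry step. Hk2, an inducible hexokinase that binds mitochondria, read 10.15 and 10.51 on the XCFX and XCFY arrays, against 8.66 and 8.73 on the XX and XY arrays. The CFLARs Tg arrays were both higher by more than the gap between them. Hk2 averaged 10.33 ± 0.25 in CFLARs Tg and 8.69 ± 0.05 in wild-type (SD, n = 2). It rose by 1.63 (SE 0.13, limma adjusted p = 0.0133), which was the rise of rank 59 among the 13956 genes. With a wild-type array left out, the gene's own spread came from the CFLARs Tg arrays only, and limma moderated it with the spread of all genes. Hk2 then lost its call, and its difference was 1.60 without XX and 1.67 without XY. Against a minimum difference of 0.5 (limma's treat), its adjusted p was 0.0582.

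Hk1, the hexokinase found in most tissues, gave different readings from its 2 probe sets. The brightest, annotated through 1 cDNA sequence and no RefSeq transcript, read 13.02 and 13.11 in CFLARs Tg and 13.11 and 13.03 in wild-type, so that the groups overlapped (difference -0.01, SE 0.07, adjusted p = 0.959). The other, whose annotation lists RefSeq transcripts, read 9.67 and 9.93 in CFLARs Tg and 9.53 and 9.56 in wild-type. There both CFLARs Tg arrays were the higher ones, with a difference of 0.25 (SE 0.10) that did not pass when every probe set was fitted on its own (adjusted p = 0.138). Which of the probe sets measures Hk1 RNA alone is not known here.

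Phosphofructokinase, the committing step, was represented by its platelet form and its liver form. Pfkp read 11.43 and 11.50 in CFLARs Tg, against 11.06 and 11.08 in wild-type. The arrays of each group lay close together and the groups did not overlap: Pfkp rose by 0.40 (SE 0.06, adjusted p = 0.0233). Pfkl read 10.94 and 11.12 in CFLARs Tg and 10.64 and 10.75 in wild-type. Both CFLARs Tg arrays were higher here too, but the difference of 0.34 (SE 0.09) did not pass (adjusted p = 0.0604); it passed with sex type as a replicate block (adjusted p = 0.0337). Aldoa, which splits the doubly phosphorylated fructose, read 12.89 and 13.04 in CFLARs Tg and 12.67 and 12.69 in wild-type. Its groups did not overlap, and its difference of 0.28 (SE 0.07) did not pass (adjusted p = 0.0578); it passed after quantile normalization (adjusted p = 0.0453).

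In the pay-off phase, Pgk1, which makes ATP from bisphosphoglycerate, read 12.59 and 12.82 in CFLARs Tg, against 12.20 and 12.28 in wild-type. It rose by 0.47 (SE 0.09, adjusted p = 0.0374), with the XCFY array the higher of the CFLARs Tg arrays. Pgam1, which moves the phosphate of phosphoglycerate, read 12.20 and 12.34 in CFLARs Tg and 12.13 and 12.17 in wild-type. The XCFX array lay just above the wild-type arrays, and the difference of 0.12 (SE 0.07) did not pass (adjusted p = 0.275). Pkm, the pyruvate kinase of muscle and of dividing cells, read 12.03 and 12.18 in CFLARs Tg and 11.56 and 11.59 in wild-type. The gap between the groups was wider than that within either, and Pkm rose by 0.53 (SE 0.07, adjusted p = 0.0221). Its splice forms were not told apart here. Ldha, which turns pyruvate into lactate, read 13.51 and 13.50 in CFLARs Tg and 13.32 and 13.36 in wild-type. The arrays of each group nearly coincided, and the difference of 0.16 (SE 0.06) did not pass (adjusted p = 0.103).

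The same 4 enzymes passed after median centring (8.87% of all genes rose), without a filter on low values (5.31%), with the dimmest 50% of genes left out (10.1%), with the mean of a gene's probe sets (8.47%) and with an intensity trend (8.6%). After quantile normalization (8.77%) Aldoa passed as well, and with sex type as a replicate block (10.1%) Pfkl did. Against a minimum difference of 0.5, 0 of the 9 passed (limma treat; 1 at an unadjusted p under 0.05), and 0.38% of all genes did. The count also turned on single arrays. Without the XX array no enzyme passed, and the differences of Hk2, Pfkp, Pgk1 and Pkm were 1.60, 0.39, 0.43 and 0.51. Without the XY array 0 passed, with 5 at an unadjusted p under 0.05, and 0.265% of all genes rose. Without the XCFX array 7 passed, with Aldoa, Pfkl and Pgam1 added (22.3% of all genes rose), and without the XCFY array 6, with Aldoa and Pfkl added (14.1%). Every call elsewhere in the text was made with all 4 arrays, and over all genes only 42 and 40 calls were made without the XX and without the XY array.

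The XCFY array read higher than the XCFX array in 8 of the 9 enzymes, all but Ldha. Among the wild-type arrays, XY likewise read higher than XX in 8 of the 9, all but Hk1. Differences within the XY-type pair were also more widely spread in general (SD 0.46, against 0.35 in the XX-type pair). The share of all genes with these orders was not counted. In 8 of the 9 the difference was also larger in the XY-type pair (XCFY minus XY) than in the XX-type pair (XCFX minus XX): for Hk2 it was 1.78 and 1.49, and for Pkm 0.59 and 0.48.

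Of the 9 enzymes, 4 had more than 1 probe set. The Pgk1 probe sets, 3 in number, differed between the groups by 0.47, 0.47 and 0.46, and each rose when fitted on its own (adjusted p from 0.0353 to 0.0372). A pair of them gave the same value on every array to within 0.000186, so they are no separate measurement. The 3 probe sets of Pgam1 differed by 0.12, 0.13 and 0.13, and 2 of these agree to within 0.000133. The second probe set of Pkm read 11.15 and 11.32 in CFLARs Tg and 10.64 and 10.74 in wild-type, a difference of 0.54 (SE 0.08, adjusted p = 0.0251). Thus Pkm and Pgk1 gave nearly the same difference from each of their probe sets, and Hk1 did not. The annotation of the second Pkm probe set, like that of the brightest Hk1 probe set, lists no RefSeq transcript. Fitted singly, 7 of the 15 probe sets of the 9 enzymes rose, against 8.37% of all 15298 probe sets fitted. These 7 were the probe sets of Hk2, Pfkp, Pgk1 and Pkm, which rose above, so they add no further gene. Genes such as Pgk1, Pgam1 and Ldha have processed pseudogenes in the mouse genome, and whether their probes also bind RNA from these was not tested.

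**Figure D2:**
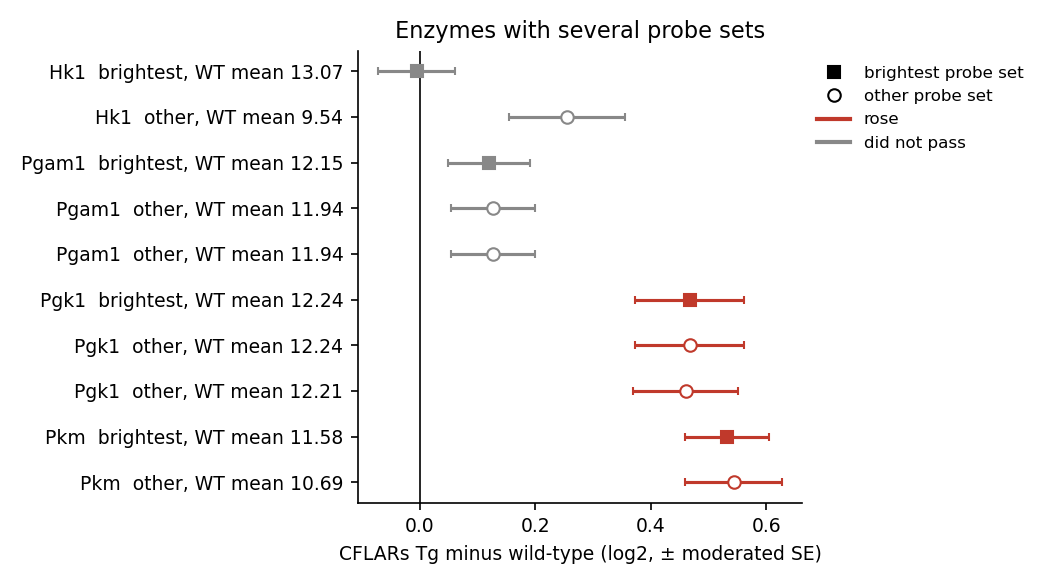
Difference between CFLARs Tg and wild-type (log2, with the moderated SE) for each probe set of the 4 enzymes that had several. Squares mark the brightest probe set of a gene and red marks those that rose; the Pgk1 and Pkm probe sets lie near 0.47 and 0.53, and the probe sets of Hk1 lie at -0.01 and 0.25.

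The stretches before the transcription start of 5 enzymes are shown with matches to short motifs. The hypoxia-inducible factor HIF-1 and MYC, both known activators of glycolysis genes, bind such motifs in DNA. Whether they bind in these stretches was not tested. RefSeq promoter windows (GRCm38.p6, 250 bases before to 50 after a start) were matched for all 10 enzymes, with 15 windows. The motifs ACGTG and GCGTG, cores of the hypoxia response element, were searched on both strands, and the E-box CACGTG, which contains ACGTG, was counted as well. The 250 bases before the start are printed for Hk2, Pfkp, Pgk1 and Pkm, which rose, and for Ldha. Capitals mark each match, as CACGT or CACGC where it lies on the opposite strand.
Hk2, chr6:82774455-82774704, minus strand: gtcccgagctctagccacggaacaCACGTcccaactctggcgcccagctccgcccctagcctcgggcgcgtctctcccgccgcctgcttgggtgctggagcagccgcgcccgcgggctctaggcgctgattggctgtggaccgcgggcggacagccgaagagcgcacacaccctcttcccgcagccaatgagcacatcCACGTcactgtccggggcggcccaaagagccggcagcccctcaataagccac
Pfkp, chr13:6648772-6649021, minus strand: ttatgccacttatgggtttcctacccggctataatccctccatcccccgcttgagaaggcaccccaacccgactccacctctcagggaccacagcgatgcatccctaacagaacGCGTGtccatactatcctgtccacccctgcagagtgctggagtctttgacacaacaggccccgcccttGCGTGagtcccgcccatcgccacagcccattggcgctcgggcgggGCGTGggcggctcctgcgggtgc
Pgk1, chrX:106186850-106187099, plus strand: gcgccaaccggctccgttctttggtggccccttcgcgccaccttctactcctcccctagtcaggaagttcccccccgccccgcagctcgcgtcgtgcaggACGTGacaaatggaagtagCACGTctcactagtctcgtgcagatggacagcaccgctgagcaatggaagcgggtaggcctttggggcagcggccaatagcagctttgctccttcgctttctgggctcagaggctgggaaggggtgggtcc
Pkm, chr9:59656977-59657226, plus strand: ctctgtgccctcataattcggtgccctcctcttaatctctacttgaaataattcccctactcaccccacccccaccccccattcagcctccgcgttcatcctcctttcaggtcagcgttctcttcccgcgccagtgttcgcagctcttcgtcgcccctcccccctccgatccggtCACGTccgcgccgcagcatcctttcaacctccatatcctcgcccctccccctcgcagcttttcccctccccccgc
Ldha, chr7:46845554-46845803, plus strand: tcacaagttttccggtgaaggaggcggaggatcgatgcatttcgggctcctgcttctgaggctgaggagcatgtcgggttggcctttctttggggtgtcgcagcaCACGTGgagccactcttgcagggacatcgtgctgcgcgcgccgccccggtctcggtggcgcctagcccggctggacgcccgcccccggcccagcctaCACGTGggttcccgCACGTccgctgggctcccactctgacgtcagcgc

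A match was found in 11 of the 15 windows of the enzymes, and in 9 of the 10 genes in at least 1 window, the exception being Gpi1. The motif is common: 43.8% of all 32851 windows held it, as did 59.1% of the windows of fitted genes and 64.8% of fitted genes with a window. In Hk2 the matches began 226 and 52 bases before the start, in Pgk1 150 and 131 bases before it, and in Pfkp 136, 68 and 23 bases before it. Pkm has 2 windows, of which the printed one held a match 75 bases before the start and the other held none. The E-box was found in 1 of the 10 genes, Ldha, in 8.1% of all genes with a window and in 11.2% of fitted genes with a window. Ldha did not pass the test, and a match in a window is only a run of letters.

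The other glycolysis genes moved both ways. The list held 19 genes, 15 had a probe set of their own, and 11 were bright enough to be fitted. Of these 11, Hk3 rose and Pfkm, Aldoc and Pklr fell, against 19.3% of all genes that passed in either direction, and the median difference was 0.05. Both CFLARs Tg arrays lay below both wild-type arrays in 5 of the 11, against 37.6% of all genes. Pklr, the pyruvate kinase of liver and intestine, read 12.25 and 12.00 in CFLARs Tg, against 12.67 and 12.69 in wild-type. Both CFLARs Tg arrays were lower, and Pklr fell by 0.55 on the log2 scale (SE 0.10, adjusted p = 0.0305). Pfkm, the muscle form of phosphofructokinase, read 9.29 and 9.19 in CFLARs Tg and 9.77 and 9.63 in wild-type, and fell by 0.46 (SE 0.08, adjusted p = 0.0285). Aldoc, the brain form of aldolase, fell by 0.36 (SE 0.07, adjusted p = 0.0328). In these 3 genes the groups did not overlap. Hk3, a hexokinase of white blood cells, read 7.83 and 7.88 in CFLARs Tg, against 7.51 and 7.44 in wild-type, and rose by 0.38 (SE 0.06, adjusted p = 0.0255). Its wild-type mean lay under the filter value of 7.48, so it was fitted only through its CFLARs Tg arrays, and it was not fitted with the dimmest 50% of genes left out.

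The remaining 7 fitted genes did not pass. Adpgk, an ADP-dependent glucokinase, differed by 0.51 (SE 0.12, adjusted p = 0.0519) and passed with sex type as a replicate block (adjusted p = 0.0353), after quantile normalization (0.0491) and after median centring (0.0476). Hkdc1, a hexokinase-like gene, differed by -0.51 (SE 0.22, adjusted p = 0.158), and its CFLARs Tg arrays read 10.35 and 9.71, against 10.53 and 10.55 in wild-type. Triose phosphate isomerase (Tpi1) differed by 0.09, the enolases Eno2 and Eno3 by 0.06 and 0.11, Bpgm, which makes the bisphosphoglycerate of red cells, by 0.05, and the heart-type lactate dehydrogenase Ldhb by -0.21. The 4 genes too dim to be fitted were Gapdhs, Pgk2, Pgam2 and Ldhc, whose expression is best known from testis or muscle. They read between 5.83 and 7.59 on all arrays. Gapdh and Eno1 had no probe set with their symbol alone and were not analysed here.

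**Figure D3:**
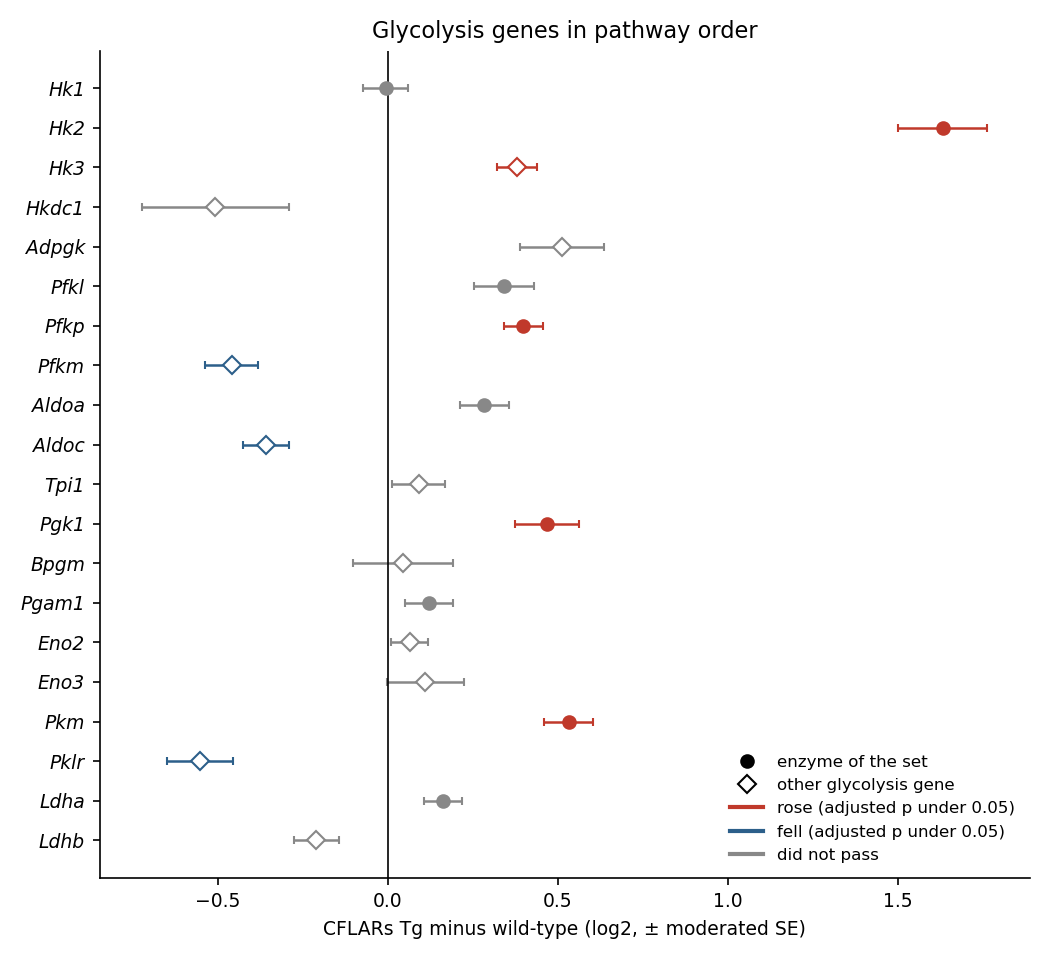
Difference between CFLARs Tg and wild-type (log2, with the moderated SE, n = 2 arrays in each group) for the 20 fitted glycolysis genes, from the entry step at the top to lactate dehydrogenase at the bottom. Filled circles are the 9 enzymes described here and open diamonds the other 11 genes; Hk2 lies at 1.63, and Pfkm, Aldoc and Pklr lie below 0 opposite to Pfkp and Pkm above it.

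At several steps the balance between isozymes differed between the groups. The ratio of 2 isozymes was taken within each array and set to 0 at its wild-type mean, for pairs chosen with the values of the enzymes known. For Pkm over Pklr this log2 ratio was 0.89 and 1.28 in the XCFX and XCFY arrays, against -0.01 and 0.01 in the XX and XY arrays, a 2.12-fold shift. For Pfkl over Pfkm it was 0.66 and 0.94 in CFLARs Tg and -0.13 and 0.13 in wild-type, and for Aldoa over Aldoc 0.63 and 0.66 against 0.01 and -0.01. In these 3 pairs both CFLARs Tg arrays were above both wild-type arrays. That order was given by the single genes: Pkm, Pfkl and Aldoa lay higher on both CFLARs Tg arrays, and Pklr, Pfkm and Aldoc lower. Hk2 over the RefSeq-annotated Hk1 probe set shifted 2.60-fold and Ldha over Ldhb 1.30-fold, whereas Pfkp over Pfkl differed by 0.06 with overlapping groups. A ratio shows unequal change only, and since the pairs were chosen with their values known, no test of the ratios was made.

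**Figure D4:**
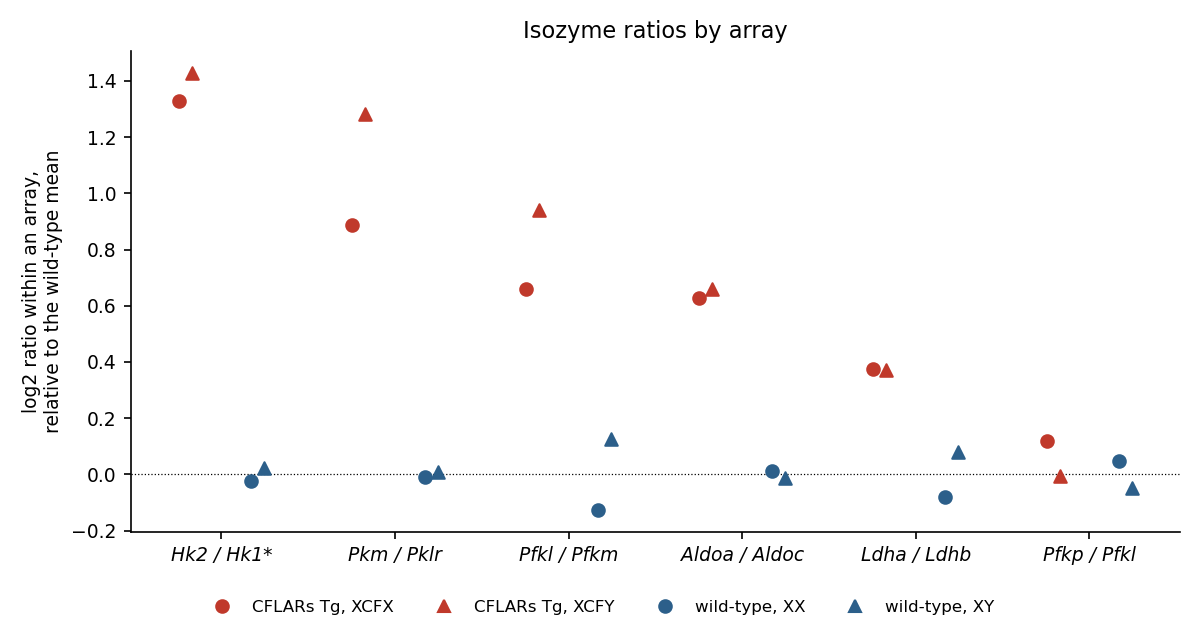
Log2 ratio of isozymes within each array, set to 0 at the wild-type mean, with CFLARs Tg in red on the left and wild-type in blue on the right of each pair; Hk1* is the Hk1 probe set that lists RefSeq transcripts. The CFLARs Tg arrays lie above the wild-type arrays in every pair shown but Pfkp over Pfkl, farthest for Hk2 over Hk1* (1.33 and 1.43).

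Around the pathway, carriers of sugar and lactate went in both directions: 2 of 10 rose and 3 fell, with a median difference of -0.03. Over all genes fitted, 8.44% rose and 10.9% fell. Slc2a1, the basal glucose transporter GLUT1, read 12.24 and 12.50 in CFLARs Tg and 11.62 and 11.79 in wild-type, and rose 1.58-fold (adjusted p = 0.0293). Slc16a3, the lactate exporter MCT4, read 10.12 and 10.63 in CFLARs Tg, against 9.28 and 9.35 in wild-type, and rose 2.09-fold (adjusted p = 0.0285). For both, every CFLARs Tg array exceeded every wild-type array, as in 32% of all genes fitted. Slc37a4, which carries glucose-6-phosphate into the endoplasmic reticulum for release as glucose, read 10.58 and 10.08 in CFLARs Tg and 11.44 and 11.41 in wild-type, and fell by 1.09 (SE 0.17, adjusted p = 0.0254). Slc2a2, the basolateral glucose transporter, and Slc2a5, the fructose transporter, also fell, by 2.78 (adjusted p = 0.0233) and 0.74 (adjusted p = 0.0179). The CFLARs Tg readings of Slc2a5, 7.43 and 7.27, lay under the filter value, so it was fitted only through its wild-type arrays.

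Of 14 fitted regulators 3 rose and 2 fell, with a median of 0.02 (8.44% of all genes rose and 10.9% fell). Hif1a, the oxygen-regulated subunit of HIF-1, read 11.62 and 11.70 in CFLARs Tg and 10.94 and 11.01 in wild-type, and rose by 0.68 (SE 0.06, adjusted p = 0.0161). Myc rose by 0.68 (SE 0.13, adjusted p = 0.0357), and Pfkfb3, which makes the activator of phosphofructokinase, by 0.69 (SE 0.09, adjusted p = 0.0207). The groups were separate in all 3. Of the 14 regulators, both CFLARs Tg arrays lay above both wild-type arrays in 7 and below them in 7, against 32% and 37.6% of all genes fitted. Mlxipl, the carbohydrate-responsive factor ChREBP that is known to drive Pklr, read 8.66 and 8.60 in CFLARs Tg and 9.64 and 9.64 in wild-type. It fell by 1.01 (SE 0.06, adjusted p = 0.00578). Pfkfb2, a form of the same bifunctional enzyme as Pfkfb3, fell by 0.40 (adjusted p = 0.0423). Hypoxia-inducible genes outside glycolysis were not uniform: of 13 fitted, Adm and P4ha2 rose by 0.58 and 0.48, and Ndrg1, Kdm3a and Mxi1 fell by 0.67, 0.50 and 0.38. The calls of P4ha2 and Mxi1 were lost without a filter on low values (adjusted p = 0.0531 and 0.0523), that of Mxi1 also after quantile normalization (0.0507) and median centring (0.0506). Car9, a carbonic anhydrase, read 9.21 and 9.85 in CFLARs Tg, against 8.69 and 8.75 in wild-type, and did not pass (adjusted p = 0.0639).

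At the exit of the pathway, 4 of 12 genes for pyruvate entry to mitochondria fell and 0 rose (6 had an unadjusted p under 0.05). Beside this and the lists that follow, 10.9% of all genes fell and 8.44% rose. Before adjustment, 5457 of the 13956 genes had a limma p under 0.05. Pdk2, a kinase that switches off pyruvate dehydrogenase, read 9.96 and 9.60 in CFLARs Tg and 11.36 and 11.24 in wild-type, and fell by 1.52 (SE 0.14, adjusted p = 0.0154). Pdk4, another such kinase, fell by 1.47, the phosphatase gene Pdp2 fell by 0.40 and the pyruvate carrier subunit Mpc1 fell by 0.28; the call of Mpc1 was lost with sex type as a replicate block (adjusted p = 0.0526). In the pentose phosphate pathway 1 of 6 rose, Pgd, by 0.36 (adjusted p = 0.0309), while transketolase (Tkt) differed by 0.23 and did not pass (adjusted p = 0.0519), though it did after quantile normalization (0.0484) and with the dimmest 50% of genes left out (0.0479). Of 10 genes for other sugars and side branches 3 rose, the mitochondrial glycerol phosphate dehydrogenase Gpd2 by 0.74, the mannose enzyme Mpi by 0.65 and Pgm2 by 0.50. In that list 4 fell: the cytosolic Gpd1 by 1.18, Glyctk by 1.08, Khk by 0.71 and Pgm1 by 0.42. Of the 7 gluconeogenesis genes, which run the pathway backwards, 2 fell, 0 rose (4 had an unadjusted p under 0.05), and the median was -0.56. Pck1 fell by 3.33. G6pc read 9.21 and 6.95 in CFLARs Tg, against 11.34 and 11.31 in wild-type, with the XCFY value just above the background scale. It fell by 3.24 (adjusted p = 0.0473), and without XCFY the difference was -2.11; the call was lost without the filter on low values (adjusted p = 0.0525). Fbp1 read 11.97 and 10.40 in CFLARs Tg, against 13.13 and 13.05 in wild-type (adjusted p = 0.0655).

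**Figure D5:**
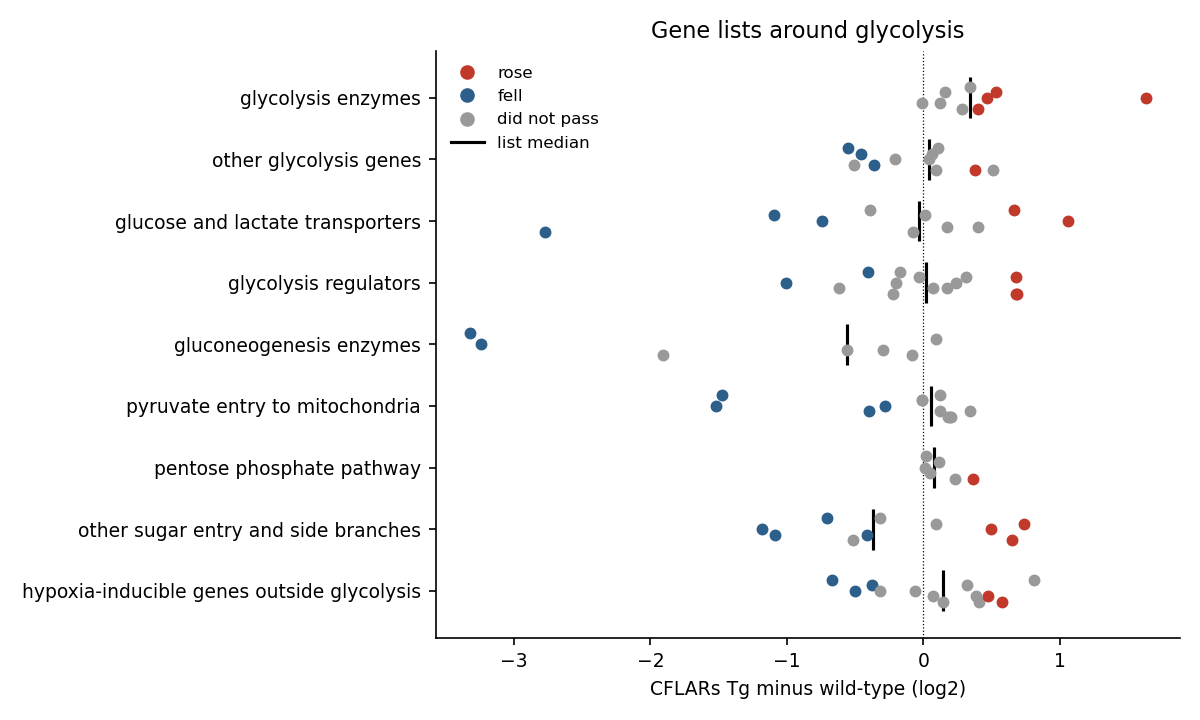
Difference between CFLARs Tg and wild-type (log2) for each fitted gene of the 9 lists, with a bar at each list's median; red points rose, blue points fell and grey points did not pass. The glycolysis enzymes have a median of 0.34, the other glycolysis genes one of 0.05 and the gluconeogenesis enzymes one of -0.56.

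Markers of some other cells and of proliferation were higher in CFLARs Tg, while further lists were lower or hardly differed. Their part in the results was not tested. For all 10 neutrophil markers on the array, the summed linear signal (2 to the power of the log2 value) was 3797 and 8181 in CFLARs Tg and 1928 and 2064 in wild-type. Of the 8 fitted 6 rose, but 5 of these, S100a8, S100a9, Cxcr2, Ly6g and Csf3r, had wild-type means under the filter value and were fitted only through their CFLARs Tg arrays, so that count does not describe the list. S100a8 read 8.50 and 10.32 in CFLARs Tg, against 6.57 and 6.90 in wild-type, and its call was lost without the filter on low values (adjusted p = 0.0516). Cxcr2 read 8.53 and 9.75 in CFLARs Tg and 6.59 and 6.83 in wild-type. The wild-type readings of both lay within or just above the background scale, so no fold is given. Of 7 proliferation markers 4 rose, Rrm2, Mcm3, Top2a and Mcm5, with a median of 0.47, against 8.44% of all genes that rose. With the mean of its probe sets Top2a differed by 0.24 in place of 0.48 and did not pass (adjusted p = 0.209), and Rrm2, which differed by 0.69 (0.46 without XCFY), did not pass with unfiltered genes (0.0557) or after quantile normalization (0.0502). The summed signal of the proliferation markers was 16361 and 19870 in CFLARs Tg, against 13724 and 13940 in wild-type. The sums of both lists were higher on the XCFY than on the XCFX array. So were the monocyte and macrophage, smooth muscle, stromal, endothelial and lymphocyte sums, while the enterocyte and red cell sums were lower there. Monocyte and macrophage markers had a median of 0.34, with 0 of 10 past the limma threshold, 5 at an unadjusted p under 0.05, and sums of 8004 and 10926 in CFLARs Tg and 6764 and 6944 in wild-type. With sex type as a replicate block, Itgam, Cd14 and Lyz2 passed (adjusted p = 0.0305, 0.0254 and 0.0191). Cd14 read 7.32 and 7.33 in wild-type, under the filter value, so it was fitted only through its CFLARs Tg arrays.

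Among 8 enterocyte markers 1 rose, Krt20, 0 fell, and 6 had an unadjusted limma p under 0.05, against 5457 of all 13956 genes. The median was -0.40, and the sum was 69412 and 50498 in CFLARs Tg, against 75954 and 75652 in wild-type. Of the 6 smooth muscle markers 0 passed (limma; 2 at an unadjusted p under 0.05), with a median of 0.17 and sums of 45224 and 50537 in CFLARs Tg and 43245 and 43467 in wild-type. Endothelial markers had a median of -0.23, and 2 of 5 fell, Kdr and Tek, against 10.9% of all genes. Both calls were lost without the filter on low values (limma adjusted p = 0.0565 and 0.0551). For red cell, stromal and lymphocyte markers the medians were 0.03, -0.01 and 0.06, and 0 genes passed, adjusted or unadjusted (limma; 2, 6 and 3 genes fitted).

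Outside all lists, the 3 fitted genes whose 4 values, centred on their mean, lay nearest to the mean centred profile of the 9 enzymes were Rap1b, Eif3d and Ipo4, at Euclidean distances of 0.00865, 0.0135 and 0.0162 log2 units. Rap1b read 12.07 and 12.22 in CFLARs Tg and 11.68 and 11.72 in wild-type. Likeness over 4 arrays is a description of these arrays only.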

How the data were processed

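The authors deposited, on a log2 scale, an expression value for each of 28856 probe sets on each of 4 arrays; per the labels' protocols, biotinylated cRNA was prepared from total RNA by the Affymetrix procedure. Summarisation, background correction and normalization are not given in the sources used here. Symbols came from the platform annotation: 21789 probe sets had 1 symbol, 1621 several and 5446 none or were not listed. The gene table of GRCm38.p6 held 21698 of the first kind and changed 0 symbols. The brightest probe set stood for a gene, and the 30% of genes with the lowest mean (at or under 7.48) were left out, which leaves 13956 genes.

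CFLARs Tg was compared with wild-type with limma 3.58.1 (lmFit, eBayes) in R 4.3.3, without covariates (2 residual degrees of freedom), with Benjamini-Hochberg adjustment over all genes fitted and a threshold of 0.05. SE is the moderated standard error. The fit was tested on simulated data. Replicate 1 is the XX or XCFX array and replicate 2 the XY or XCFY array. These numbers only name arrays, and the number of arrays limits the precision. Each group holds 1 XX-type and 1 XY-type array, so the spread within a group includes any difference between these types. The enzymes and lists were chosen with earlier results of these data known. The text names all enzymes, the other glycolysis genes with a probe set, of the remaining lists the genes past the threshold and those with the largest differences, and the 3 nearest profiles. Another normalization, filter, probe set rule, variance model, block and minimum difference, and the data without each array, were tried.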

Additional observations from a re-analysis of the deposited data

Results flagged for a closer look

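The differences of the pairs of arrays had opposite signs in 3 of the glycolysis genes fitted: Hk1 (XCFY minus XY 0.0781, against -0.09 for XCFX minus XX, brightest probe set), Bpgm (-0.13, against 0.22) and Eno3 (0.24, against -0.02). With 1 array of each kind, the difference between the pairs was not tested.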

How the results depend on the processing

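Depth in the sense of read counts does not apply to these arrays, and their number sets the precision. Over all genes 2695 passed, among the enzymes 4 of 9 and among the other glycolysis genes 4 of 11. Against a minimum log2 difference of 0.5 these counts were 63, 0 and 0; the lowest adjusted p of an enzyme was then 0.0582, and an unadjusted p under 0.05 was found for 1 enzyme. Leaving out each array in turn gave 40 to 6559 genes, 0 to 7 enzymes and 0 to 7 other glycolysis genes, with the low counts without a wild-type array and the high ones without a CFLARs Tg array. An arm with 1 array is assumed to vary like the other. With sex type as a replicate block the counts were 3112, 5 and 5, and Fbp1 and Car9 (adjusted p = 0.0204 and 0.0219), Itgam, Cd14 and Lyz2 passed. The block leaves fewer residual degrees of freedom than the main fit. Quantile normalization, median centring, no filter, leaving out 50% of genes, the mean of a gene's probe sets, an intensity trend and, for the enzymes, the RefSeq-annotated Hk1 probe set (added after seeing the data) each left the 3 counts within 1.5 times. Hk2, Pfkp, Pgk1 and Pkm passed under all of these and under the block. The call of Tek was lost with the block (0.0594). No named gene changed sign with a call under any alternative run.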
